A study of Mus musculus with 2 samples.

Results

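PPAR target genes and genes of fatty acid oxidation were followed in adipose tissue macrophages (ATMs) of mice fed a high fat diet overnight. The set held 10 of the 31053 genes in the files, taken by symbol: the receptors *Pparg* and *Ppard*, the PPAR targets *Pdk4* and *Angptl4*, the carnitine shuttle genes *Cpt1a* and *Slc25a20*, and the mitochondrial β-oxidation genes *Acadvl*, *Acadl*, *Hadha* and *Acaa2*. ATMs came from epididymal fat of male C57/BL6 mice (C57BL/6JOlaHsd in the methods) aged 8 to 12 weeks, kept on control diet (CD, 11 kcal% fat) or given a high fat diet (HFD, 58 kcal% fat) for 1 night. Cells were released by enzymatic digestion and sorted as CD45+Lin-Ly6Clow/-F4/80+ macrophages, a gate that the methods of the study give as CD45+Lin-CD11b+F4/80+. The cells of 3 mice per diet were pooled into 1 library, so there were 2 libraries and no replicate, mice could not be told apart, and diet and library cannot be told apart. No p-value was computed, and all intervals are 95% exact intervals that cover counting error only.

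PPARs are nuclear receptors that bind fatty acids and their derivatives and, as partners of the retinoid X receptors, switch on genes for the uptake, storage and burning of fat. To be burned in mitochondria, long-chain fatty acids are coupled to carnitine, carried across the inner membrane and shortened by a cycle of dehydrogenation, hydration, a second dehydrogenation and thiolysis. In macrophages, PPARγ is known for its part in lipid handling and alternative activation, and fat-laden macrophages of adipose tissue are known to carry *Trem2*.

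The PPAR and retinoid X receptor pair binds a direct repeat of the hexamer AGGTCA with 1 base of any kind between the copies, so the promoters of the genes were read for these exact letters (the repeat holds the hexamer) on both strands. RefSeq windows on GRCm38.p6, from 250 bases before to 50 bases after a gene's start, were found for 8 of the 10 genes, and *Angptl4* and *Acaa2* had no entry. The direct repeat was in none of their 10 windows and in 0.0396% of all 32817 promoter windows (13 windows). The hexamer alone was in 4 windows of 3 genes, *Pparg*, *Cpt1a* and *Acadvl*, and in 16.3% of all windows. A match is a description of the letters and not a bound site, and its absence says only that these letters are not in this window. The part of the window upstream of annotated UTRs is shown for *Pdk4*, whose level differed most between the diets, and for *Cpt1a* and *Acadvl*. The hexamers of *Cpt1a* and *Acadvl* lie 94 and 87 bases before the RefSeq start. For *Cpt1a* this start lies downstream of the GENCODE gene start (chr19:3322334) given below, so its whole window lies inside the gene as placed there. Each is written on the strand of its gene, and capitals mark the hexamer, which reads on the opposite strand in *Cpt1a*.
Pdk4, chr6:5496310-5496528, minus strand: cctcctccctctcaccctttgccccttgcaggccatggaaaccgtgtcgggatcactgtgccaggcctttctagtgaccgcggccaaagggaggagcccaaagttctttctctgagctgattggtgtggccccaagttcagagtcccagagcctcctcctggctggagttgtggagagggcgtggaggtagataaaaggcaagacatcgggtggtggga
Cpt1a, chr19:3323051-3323284, plus strand: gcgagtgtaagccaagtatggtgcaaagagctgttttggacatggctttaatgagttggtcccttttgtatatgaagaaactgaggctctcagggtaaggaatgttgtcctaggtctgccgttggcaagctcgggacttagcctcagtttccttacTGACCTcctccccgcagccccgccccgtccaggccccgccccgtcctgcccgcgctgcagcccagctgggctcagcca
Acadvl, chr11:70015429-70015678, minus strand: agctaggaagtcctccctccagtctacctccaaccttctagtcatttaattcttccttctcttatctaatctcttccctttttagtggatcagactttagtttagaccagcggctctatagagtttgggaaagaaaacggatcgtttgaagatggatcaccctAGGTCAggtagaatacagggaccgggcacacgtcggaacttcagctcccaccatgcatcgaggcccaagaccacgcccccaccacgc

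Sequencing gave 4459 CD barcodes with 15003119 UMIs and 3163 HFD barcodes with 9164686 UMIs, of which 14 barcode sequences occurred in both. Cells with 200 to 3500 genes and at most 10% mitochondrial UMIs were kept, 2364 CD and 2021 HFD cells with medians of 4490.5 and 2792 UMIs, and 7 barcodes were then shared. HFD cells were shallower, with under 1000 genes in 40.8% of them against 14.4% of CD cells. The macrophage markers (9 of 9 detected in each library) summed to 15866 CPM (UMIs of a gene scaled to 1000000 UMIs of the same cells) in CD and 21158 CPM in HFD, of which *Lyz2* made up 12565 and 18096 CPM. *Csf1r* was lower in HFD, at 815 CPM in CD and 470 CPM in HFD, as were *Adgre1* (274 and 240 CPM), *Mrc1*, *Cd68* and *Fcgr1*. *Cd14* was higher in HFD, at 479 CPM in CD and 916 CPM in HFD, as were *Itgam* (229 and 297 CPM) and *Ptprc* (272 and 312 CPM). Markers of other cells were lower by far: the 6 adipocyte genes summed to 113 and 65.5 CPM, the 5 endothelial genes to 21.9 and 12.9 CPM, the 5 stromal genes to 77.7 and 4.95 CPM, with *Pdgfra* at 0 UMIs in HFD, and *Gata6* of peritoneal macrophages to 0.488 and 0.618 CPM. The erythroid genes *Hba-a1* and *Hbb-bs* summed to 611 and 703 CPM, and 5577 of the 5685 HFD UMIs lay in the 268 HFD cells outside all sets below.

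Cells were compared in 5 overlapping sets, each defined by at least 1 UMI of its marker, or at least 10 for *Lyz1*. Folr2+Lyve1- cells also lacked any *Lyve1* UMI. Lyve1+ cells (1172 CD and 415 HFD) and Folr2+Lyve1- cells (872 and 581) carry genes of resident ATMs, whereas Ccr2+ cells (1326 and 1131) and cells with at least 10 UMIs of *Lyz1* (Lyz1 high, 555 and 672) carry genes of cells of monocyte origin. Trem2+ cells (638 and 168) carry the receptor of lipid-associated macrophages. The mix of kept cells differed between the libraries. Lyve1+ cells were 49.6% of them in CD and 20.5% in HFD, and Trem2+ cells 27.0% and 8.31%. Lyz1 high cells were 23.5% and 33.3%, and cells of no set 1.78% and 13.3%. Ratios over all kept cells thus hold this shift in the mix as well as differences within sets. The sets were not separate populations: 95.7% of CD and 89.7% of HFD Lyz1 high cells were also Ccr2+, and 42.4% and 37.1% of Lyve1+ cells were. Of Folr2+Lyve1- cells, 65.1% in CD and 49.7% in HFD were Ccr2+, and 30.8% and 23.4% were Lyz1 high. The sets named for resident genes thus held many cells with markers of monocyte origin. Depth differed between the sets, from medians of 4052.5 CD and 2299 HFD UMIs in Lyve1+ cells to 8205 and 6609 in Lyz1 high cells. Lyz1 high cells were the deepest of the 5 sets in both libraries.

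**Figure D1:**
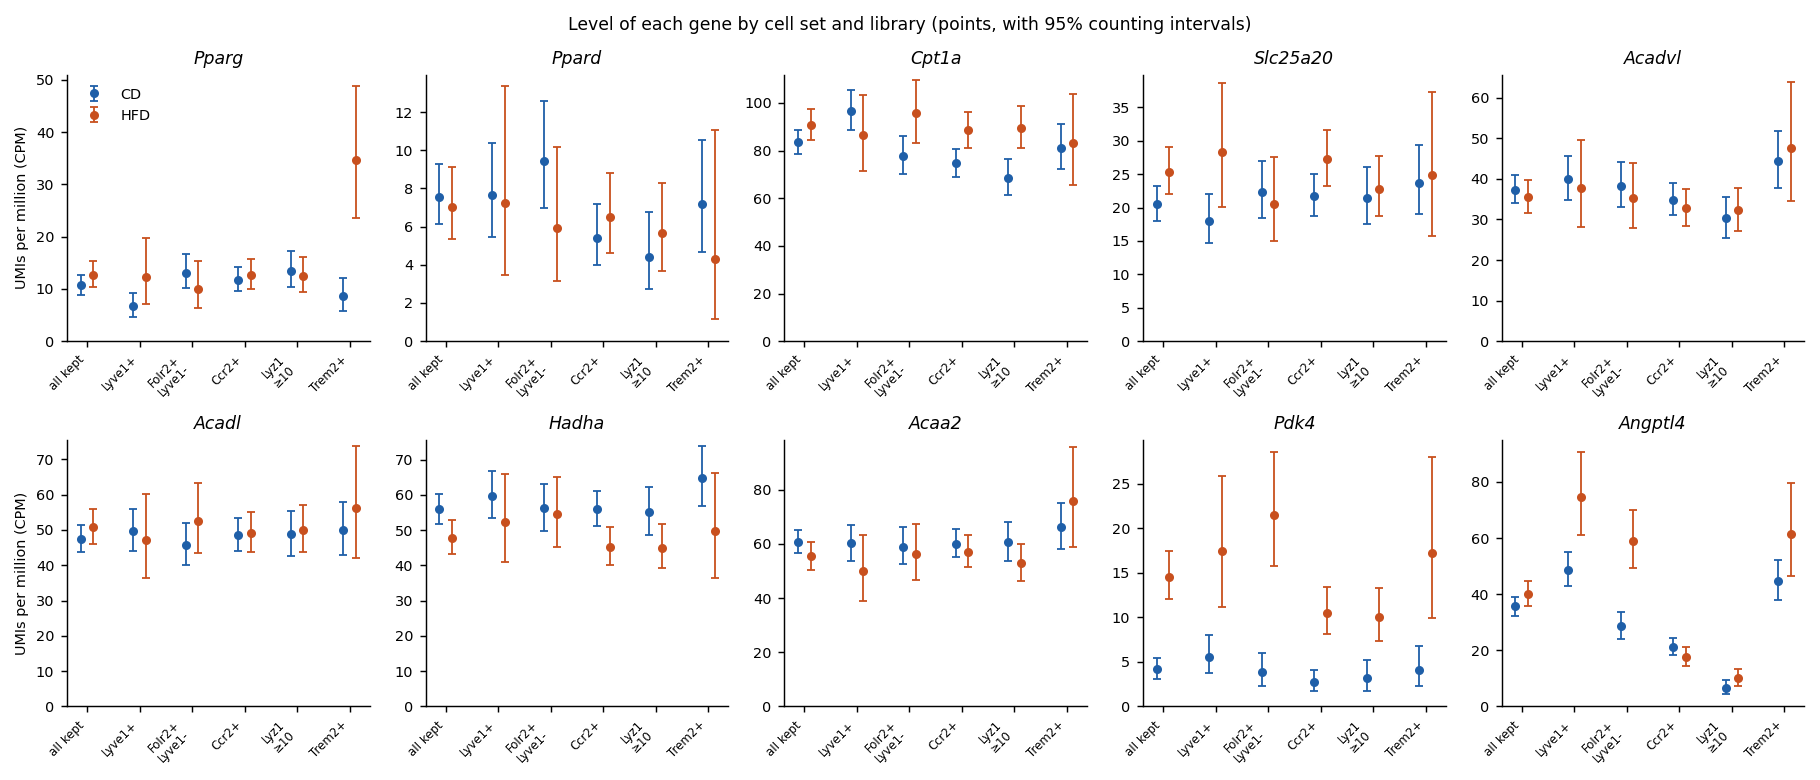
Level of each of the 10 genes in CPM (vertical axis from 0, its own scale in each panel) in all kept cells and in the 5 cell sets, in the CD (blue) and HFD (orange) library; points are summed UMIs over all cells and bars are 95% exact Poisson intervals of counting error. *Pdk4* lies higher in HFD in every set, *Angptl4* lies lowest in Lyz1 high cells at 6.72 and 10.0 CPM, and *Pparg* stands at 34.6 CPM in HFD Trem2+ cells.

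All 10 genes had UMIs in both libraries and in every set. A gene was called when HFD and CD differed by at least 1.5-fold and at least 50 UMIs lay in the 2 libraries together. In all kept cells 1 of the 10 genes was called higher in HFD, *Pdk4*, where 4.7% of all 9929 genes tested were, and none was called lower, where 8.94% of all genes were. The other 9 log2 ratios of HFD over CD ran from -0.23 (*Hadha*) to 0.31 (*Slc25a20*), and the median over the 10 genes was 0.11, beside -0.02 over all genes tested. One gene of the group thus stood apart between the libraries, and the genes of the β-oxidation cycle differed little.

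*Pdk4* (ENSMUSG00000019577, chr6:5483351-5496309, minus strand, GRCm38) codes for a kinase that phosphorylates pyruvate dehydrogenase and so spares glucose while fat is burned, and it is a classic PPAR target. It had 51 UMIs in CD cells, or 4.15 CPM (3.09 to 5.46), and 118 UMIs in HFD cells, or 14.6 CPM (12.1 to 17.5). The HFD level was 3.51-fold the CD level (2.51 to 4.98), a log2 ratio of 1.81 (1.33 to 2.32), and 99.7% of all genes tested had a ratio at or below it. The UMIs were spread over many cells, since no cell held more than 2 in CD or 3 in HFD.

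*Pdk4* was higher in HFD in each of the 5 sets. In Lyve1+ cells it stood at 5.59 CPM in CD and 17.4 CPM in HFD, a log2 ratio of 1.64 (0.80 to 2.46). In Folr2+Lyve1- cells it went from 3.82 to 21.5 CPM, a log2 ratio of 2.49 (1.69 to 3.34). In Ccr2+ cells it went from 2.76 to 10.5 CPM (log2 ratio 1.93, 1.24 to 2.67). These sets share cells, so their values are not independent of each other. In Lyz1 high cells the levels were 3.15 and 10.0 CPM (log2 ratio 1.67, 0.80 to 2.62). In Trem2+ cells they were 4.14 and 17.3 CPM (log2 ratio 2.06, 0.95 to 3.18), on 15 and 16 UMIs, which is under the 50 needed for a call. In all 5 sets the CD and HFD intervals of the *Pdk4* level did not overlap.

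Depth moved with diet, so the ratio of *Pdk4* was also taken among cells of like depth. It was 1.73 (0.37 to 3.44) in cells with 200 to 999 genes, 1.60 (0.90 to 2.32) in cells with 1000 to 1999 genes and 1.66 (0.80 to 2.57) in cells with 2000 to 3500 genes. The HFD excess was thus about as large within each range of depth, the first of them on 5 CD UMIs. The level itself was lower in deeper cells, at 9.69, 4.87 and 2.99 CPM in CD and at 32.1, 14.7 and 9.46 CPM in HFD. Without the cells that held a UMI of any of 43 marker genes of other cell types, a setting added after seeing the data that left 1081 CD and 1364 HFD cells, the log2 ratio was 2.32 (1.53 to 3.19).

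*Angptl4* (ENSMUSG00000002289, chr17:33773750-33781830, minus strand), a secreted inhibitor of lipoprotein lipase that fatty acids induce through PPARs, differed most between cell sets. In CD it had 48.8 CPM (43.1 to 55.1) in Lyve1+ cells, 44.7 CPM (38.1 to 52.2) in Trem2+ cells, 28.6 CPM (24.1 to 33.7) in Folr2+Lyve1- cells, 21.2 CPM (18.2 to 24.5) in Ccr2+ cells and 6.72 CPM (4.60 to 9.49) in Lyz1 high cells. In HFD the same order held, with 74.8 CPM (61.0 to 90.7) in Lyve1+ cells, 61.6 CPM (46.6 to 79.8) in Trem2+ cells, 59.0 CPM (49.3 to 70.1) in Folr2+Lyve1- cells, 17.5 CPM (14.3 to 21.1) in Ccr2+ cells and 10.0 CPM (7.33 to 13.4) in Lyz1 high cells. Neighbours in that order whose intervals overlapped were Lyve1+ and Trem2+ cells in both libraries, Folr2+Lyve1- and Ccr2+ cells in CD, and Trem2+ and Folr2+Lyve1- cells in HFD.

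Each set was also compared with the kept cells outside it, separately in each library, by the same 1.5-fold rule. Over the 10 genes, 5 sets and 2 libraries, 9 of 100 values were called higher and 13 lower in the set. In Lyz1 high cells 1 gene was called higher and 3 lower in CD, where 7.94% and 23.9% of all genes were, and 0 higher and 3 lower in HFD, where 5.9% and 23.1% were. In Ccr2+ cells 3 genes were called lower in CD and 2 in HFD, where 19.3% and 22.1% of all genes were, and 0 were called higher in both, where 8.71% and 8.17% of genes were. The share of genes called lower in these 2 sets was large for genes in general, so a count of 2 or 3 of 10 lies near it.

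In Lyz1 high and in Ccr2+ cells the *Angptl4* difference was the largest of the 10 genes in both libraries. Lyz1 high cells had 6.72 CPM against 54.0 CPM outside the set in CD and 10.0 against 79.3 CPM in HFD, log2 ratios of -3.01 (-3.57 to -2.48) and -2.99 (-3.47 to -2.53). Ccr2+ cells had log2 ratios of -1.74 (-2.02 to -1.46) in CD and -2.69 (-3.03 to -2.35) in HFD. Lyve1+ cells were on the other side, at 0.94 (0.66 to 1.22) and 1.19 (0.84 to 1.53). Folr2+Lyve1- cells had -0.50 (-0.80 to -0.21) in CD and 0.84 (0.51 to 1.17) in HFD. The CD value turned to 0.77 when all cells were thinned to 800 UMIs. It turned to 1.11 when the set was cut to its cells of exactly 1 set. These were set against all other kept cells, Folr2+Lyve1- cells of further sets included.

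By the number of *Lyz1* UMIs in a cell, *Angptl4* went from 70.0 CPM at 0 UMIs to 44.5 at 1 to 9, 11.8 at 10 to 49 and 2.35 at 50 or more in CD. In HFD it went from 105 to 68.1, 12.4 and 8.52 CPM over the same steps. By *Ccr2* UMIs it went from 70.8 CPM at 0 to 54.1 at 1 or 2, 18.6 at 3 to 5 and 9.14 at 6 or more in CD, and from 113 to 33.9, 13.9 and 10.0 CPM in HFD. *Angptl4* was thus carried mainly by cells low in the markers of monocyte origin. Depth and the adipocyte markers moved along with this order: the 6 adipocyte genes summed to 114 CPM in CD and 89.3 CPM in HFD Lyve1+ cells and to 45.4 and 30.9 CPM in Lyz1 high cells, none of them at 0. Without the cells holding a UMI of any of the 43 markers of other types, these 6 included, the log2 ratios of Lyz1 high cells against the rest were -2.51 (-3.35 to -1.75) in CD and -3.09 (-3.70 to -2.53) in HFD.

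Between the diets *Angptl4* depended on the cells. Over all kept cells it had 438 UMIs, 35.7 CPM (32.4 to 39.2), in CD and 323 UMIs, 39.9 CPM (35.7 to 44.5), in HFD, a log2 ratio of 0.16 (-0.05 to 0.37). Lyve1+ and Trem2+ cells, the sets highest in *Angptl4*, were smaller shares of the HFD cells, and Lyz1 high cells, lowest in it, a larger share. The ratio over all kept cells holds this shift too. Without the cells holding any marker of another type the log2 ratio over all kept cells was 0.55 (0.24 to 0.86). That setting left 1081 of 2364 CD and 1364 of 2021 HFD cells. Depth was not matched in it, and the ratio varied with depth, as given below. In Folr2+Lyve1- cells the HFD level was 2.07-fold that of CD, a log2 ratio of 1.05 (0.69 to 1.40). Over the planned settings, those not added after seeing the data, that ratio ranged from 0.55, which is under 1.5-fold, to 1.41. This set rests on the lack of a *Lyve1* UMI, and its cells had medians of 4995 CD and 2522 HFD UMIs. The part of undetected *Lyve1* was not tested. In Lyve1+ cells the log2 ratio was 0.62 (0.27 to 0.95), with a range of 0.50 to 0.93 over those settings. In Ccr2+ cells the log2 ratio was -0.28 (-0.63 to 0.08), and in Lyz1 high and Trem2+ cells it was 0.57 (-0.11 to 1.27) and 0.46 (-0.00057 to 0.91). The interval of Folr2+Lyve1- cells lay wholly above that of Ccr2+ cells, which share cells with them, and the difference was not tested.

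The sets were then split by *Ccr2*, after these values had been seen, and the larger ratios lay in cells without a *Ccr2* UMI. Among Folr2+Lyve1- cells, those without *Ccr2* had 71.0 CPM in CD and 152 CPM in HFD (log2 ratio 1.10, 0.63 to 1.56), and those with *Ccr2* had 18.1 and 22.9 CPM (0.34, -0.28 to 0.94). Among Lyve1+ cells, those without *Ccr2* had 67.1 and 125 CPM (0.90, 0.48 to 1.30), and those with *Ccr2* had 33.5 and 36.9 CPM (0.14, -0.51 to 0.75). In both sets the intervals of the ratio with and without *Ccr2* overlapped. The cells without *Ccr2* were the shallower ones, with medians of 2768.5 CD and 1609 HFD UMIs in Folr2+Lyve1- cells against 6488.5 and 5124 UMIs with it.

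Over all kept cells the ratio of *Angptl4* varied more with the number of genes per cell than that of the other genes. Cell sets differed in that number too. Lyz1 high cells had medians of 2219 CD and 1929 HFD genes, and Lyve1+ cells 1552.5 and 1078. The parts of depth and of the kind of cell were not tested. The log2 ratio of *Angptl4*, HFD over CD, over all kept cells was 1.15 (0.52 to 1.84) in cells with 200 to 999 genes, where the levels were 48.4 and 108 CPM. It was -0.06 (-0.34 to 0.23) in cells with 1000 to 1999 genes and -0.67 (-1.18 to -0.18) in cells with 2000 to 3500 genes, where the levels were 20.6 and 13.0 CPM. With at least 1000 genes per cell the ratio over all kept cells was -0.24. Within Folr2+Lyve1- cells the 3 ranges of depth gave 2.27 (1.13 to 3.66), 0.47 (-0.04 to 0.97) and 0.29 (-0.54 to 1.06), all above 0. Within Lyve1+ cells they gave 0.51 (-0.46 to 1.53), 0.91 (0.48 to 1.32) and -0.39 (-1.47 to 0.57), the last on 11 HFD UMIs.

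**Figure D2:**
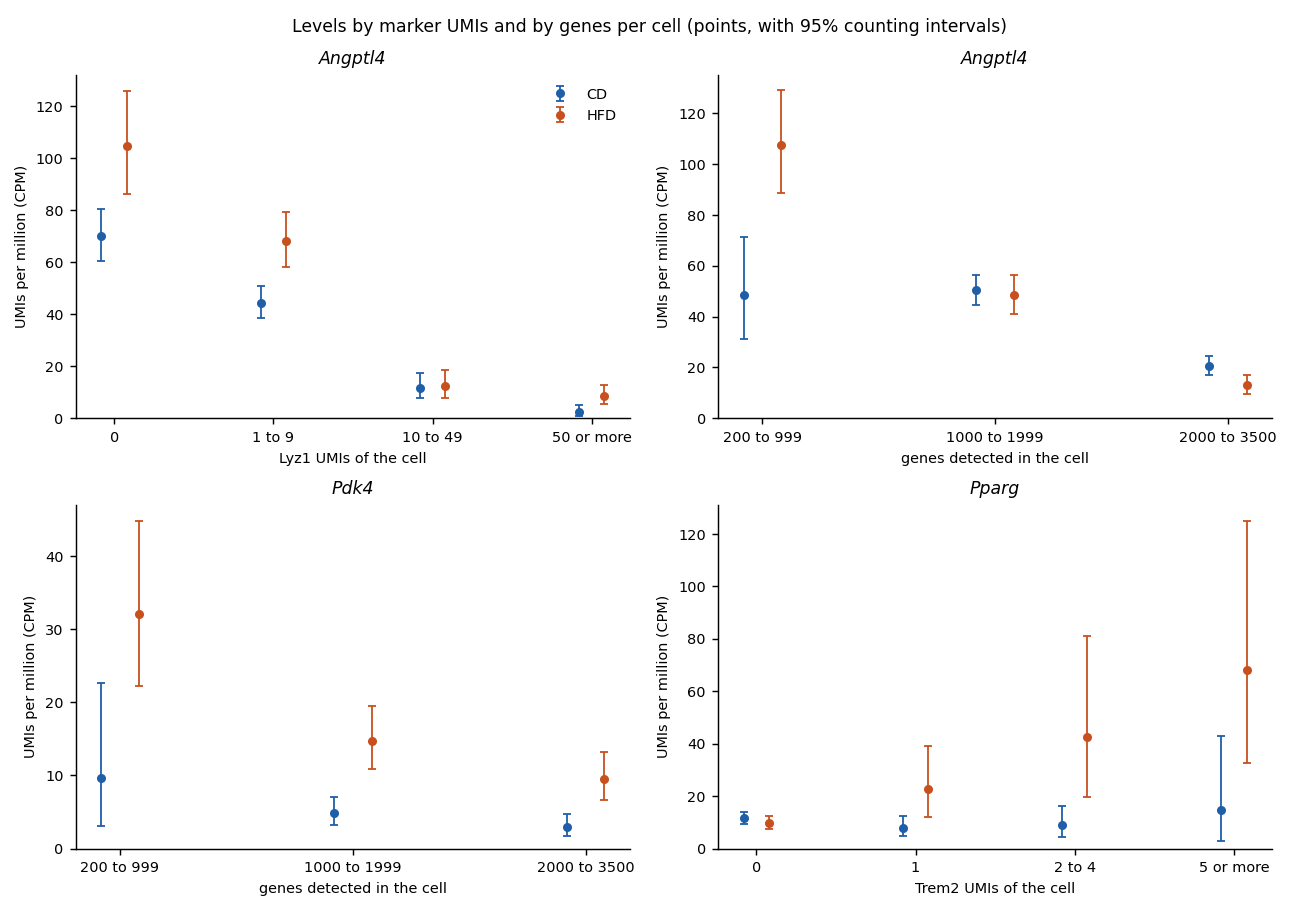
Levels in CPM (vertical axes, from 0) of *Angptl4* by *Lyz1* UMIs per cell and by genes detected per cell, of *Pdk4* by genes detected per cell and of *Pparg* by *Trem2* UMIs per cell, in kept cells of the CD (blue) and HFD (orange) library, with 95% exact Poisson intervals as bars. *Angptl4* is lower at each step of *Lyz1*, *Pdk4* is higher in HFD at each depth, and *Pparg* is higher at each step of *Trem2* in HFD, from 9.78 to 68.0 CPM.

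*Pparg* (ENSMUSG00000000440, chr6:115360951-115490399, plus strand), the receptor that drives fat storage and is the target of the thiazolidinedione drugs, had 131 UMIs in CD and 102 in HFD. Its level over all kept cells was 10.7 CPM (8.92 to 12.7) in CD and 12.6 CPM (10.3 to 15.3) in HFD, a log2 ratio of 0.24 (-0.15 to 0.63). In CD its lowest level was in Lyve1+ cells, 6.70 CPM (4.69 to 9.28) against 13.7 CPM outside, a log2 ratio of -1.04 (-1.63 to -0.47). In HFD the same set had 12.3 CPM (7.19 to 19.8) against 12.7 CPM, a log2 ratio of -0.04 (-0.88 to 0.73). The 2 intervals overlap, so the level of *Pparg* in Lyve1+ cells was not told apart between libraries at this depth.

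In Trem2+ cells *Pparg* had 31 UMIs in 638 CD cells, 8.56 CPM (5.81 to 12.1), and 32 UMIs in 168 HFD cells, 34.6 CPM (23.6 to 48.8). The HFD level was 4.04-fold the CD level, a log2 ratio of 2.01 (1.25 to 2.77), and *Pparg* was called alone among the 8 genes with at least 50 UMIs in these cells, where 8.88% of all genes were called higher. Against the cells outside the set the HFD log2 ratio was 1.82 (1.17 to 2.45) and the CD log2 ratio -0.43 (-1.06 to 0.16). By *Trem2* UMIs per cell, the HFD level was 9.78 CPM at 0, 22.9 at 1, 42.7 at 2 to 4 and 68.0 at 5 or more, where the CD levels were 11.5, 7.84, 8.90 and 14.7 CPM. *Pparg* thus went with *Trem2* in the HFD library, and the last step held 20 HFD cells with 10 UMIs and 24 CD cells with 3.

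The Trem2+ cells of the 2 libraries were not alike in other genes, since 60.5% of them were Lyve1+ in CD and 19.0% in HFD. Within Trem2+ cells without *Lyve1* the *Pparg* level was 10.2 CPM in CD and 34.3 CPM in HFD, a log2 ratio of 1.76 (0.81 to 2.75). Within those with *Lyve1* it was 7.32 and 35.8 CPM, a log2 ratio of 2.29 (0.48 to 3.82) on 15 and 5 UMIs. Trem2+ cells with *Ccr2* had 7.45 and 34.9 CPM and those without it 10.4 and 33.9 CPM. The HFD excess was therefore present on both sides of each split, made after the values were seen. It was also present at matched depth, with log2 ratios of 1.96 (0.77 to 3.13) in Trem2+ cells with 1000 to 1999 genes and 2.12 (1.08 to 3.17) in those with 2000 to 3500 genes. The 6 adipocyte genes summed to 107 CPM in CD and 51.8 CPM in HFD Trem2+ cells, with *Plin1* at 0 in HFD. The erythroid genes, at 1509 CPM in CD and 15.1 CPM in HFD Trem2+ cells, differed too. Without the cells holding a UMI of any of the 43 markers of other types, both lists included, the log2 ratio of *Pparg* in Trem2+ cells was 2.11 (0.77 to 3.51). The cause of the *Pparg* difference was not tested.

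*Ppard* (ENSMUSG00000002250, chr17:28232700-28301474, plus strand), the widely expressed receptor of the family, had 93 UMIs, 7.57 CPM (6.11 to 9.27), in CD and 57 UMIs, 7.05 CPM (5.34 to 9.13), in HFD. Its log2 ratio was -0.10 (-0.60 to 0.39), so its level was not told apart between the libraries at this depth. It was lower in Ccr2+ cells than outside them in CD (5.41 against 12.8 CPM, log2 ratio -1.25, -1.86 to -0.63) and lower in Lyz1 high cells (4.41 against 9.57 CPM, -1.12, -1.89 to -0.40). The HFD values of these contrasts were -0.46 (-1.31 to 0.45) and -0.65 (-1.46 to 0.15), and both intervals hold 0. The third receptor, *Ppara*, which was not among the 10 genes, had 1 UMI in CD and 0 in HFD. A count of 0 was taken to allow up to 3 UMIs, a set floor and not one of the exact intervals.

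*Cpt1a* (ENSMUSG00000024900, chr19:3322334-3385733, plus strand), the rate-limiting enzyme that couples long-chain fatty acids to carnitine, had 83.4 CPM (78.4 to 88.7) in CD and 90.8 CPM (84.3 to 97.6) in HFD, a log2 ratio of 0.12 (-0.02 to 0.26). Its ratio was above 0 in Lyz1 high cells, at 0.39 (0.18 to 0.60), where the levels were 68.5 and 89.7 CPM. It was 0.25 (0.08 to 0.41) in Ccr2+ cells and 0.30 (0.05 to 0.54) in Folr2+Lyve1- cells, and -0.16 (-0.46 to 0.13) in Lyve1+ cells. These differences are all under 1.5-fold. In CD the level was higher in Lyve1+ cells (96.6 against 73.2 CPM outside) and lower in Ccr2+ cells (74.6 against 105 CPM), log2 ratios of 0.40 (0.22 to 0.58) and -0.49 (-0.67 to -0.30). In HFD those 2 contrasts were -0.09 (-0.38 to 0.20) and -0.14 (-0.39 to 0.10).

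*Slc25a20* (ENSMUSG00000032602, chr9:108662088-108684641, plus strand), the carrier that takes acylcarnitines across the inner membrane, had 20.5 CPM (18.1 to 23.2) in CD and 25.4 CPM (22.0 to 29.1) in HFD. Its log2 ratio of 0.31 (0.03 to 0.58) rested in part on 1 HFD cell with 15 of the 205 UMIs, was 0.22 without the cell of the most UMIs in each library, and was -0.35 after thinning to 800 UMIs. In Lyve1+ cells it went from 18.1 to 28.3 CPM, a log2 ratio of 0.65 (0.07 to 1.20), on 97 and 39 UMIs. No set differed from the cells outside it by 1.5-fold in either library.

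The 4 β-oxidation genes code for enzymes of the cycle. *Acadvl* (ENSMUSG00000018574, chr11:70010183-70015411, minus strand) and *Acadl* (ENSMUSG00000026003, chr1:66830839-66863277, minus strand) code for acyl-CoA dehydrogenases of very long and long chains. *Hadha* (ENSMUSG00000025745, chr5:30118304-30155162, minus strand) codes for the α subunit of the trifunctional protein, and *Acaa2* (ENSMUSG00000036880, chr18:74779197-74806208, plus strand) for a mitochondrial thiolase. *Acadvl* had 37.3 CPM (33.9 to 40.9) in CD and 35.5 CPM (31.5 to 39.8) in HFD, a log2 ratio of -0.07 (-0.29 to 0.14). *Acadl* had 47.5 CPM (43.7 to 51.5) and 50.8 CPM (46.0 to 56.0), a log2 ratio of 0.10 (-0.09 to 0.28). *Acaa2* had 60.7 CPM (56.4 to 65.2) and 55.4 CPM (50.4 to 60.8), a log2 ratio of -0.13 (-0.30 to 0.04). All 3 intervals hold 0 and lie within 1.5-fold in both directions.

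*Hadha* had 55.8 CPM (51.7 to 60.2) in CD and 47.7 CPM (43.1 to 52.7) in HFD, a log2 ratio of -0.23 (-0.41 to -0.04). It was lower in HFD in each of the 5 sets, with log2 ratios from -0.38 (-0.87 to 0.08) in Trem2+ cells to -0.04 (-0.37 to 0.27) in Folr2+Lyve1- cells, and its intervals lay below 0 in Ccr2+ cells (-0.30, -0.52 to -0.09) and Lyz1 high cells (-0.29, -0.56 to -0.02). In cells with 200 to 999 genes the sign turned, at 0.16 (-0.56 to 0.92), on 24 and 55 UMIs. Between cell sets, none of the 4 genes passed 1.5-fold in either library. The widest of these contrasts were in HFD Trem2+ cells, *Acaa2* (75.6 against 52.8 CPM outside, log2 ratio 0.52, 0.13 to 0.89) and *Acadvl* (47.5 against 33.9 CPM, 0.49, -0.01 to 0.95). In CD Lyz1 high cells *Acadvl* had 30.2 against 41.7 CPM (-0.46, -0.76 to -0.18). The levels of the 4 genes spanned 0.29 (*Acadl*) to 0.64 (*Acadvl*) log2 units over the 5 sets and 2 libraries, where *Angptl4* spanned 3.30.

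**Figure D3:**
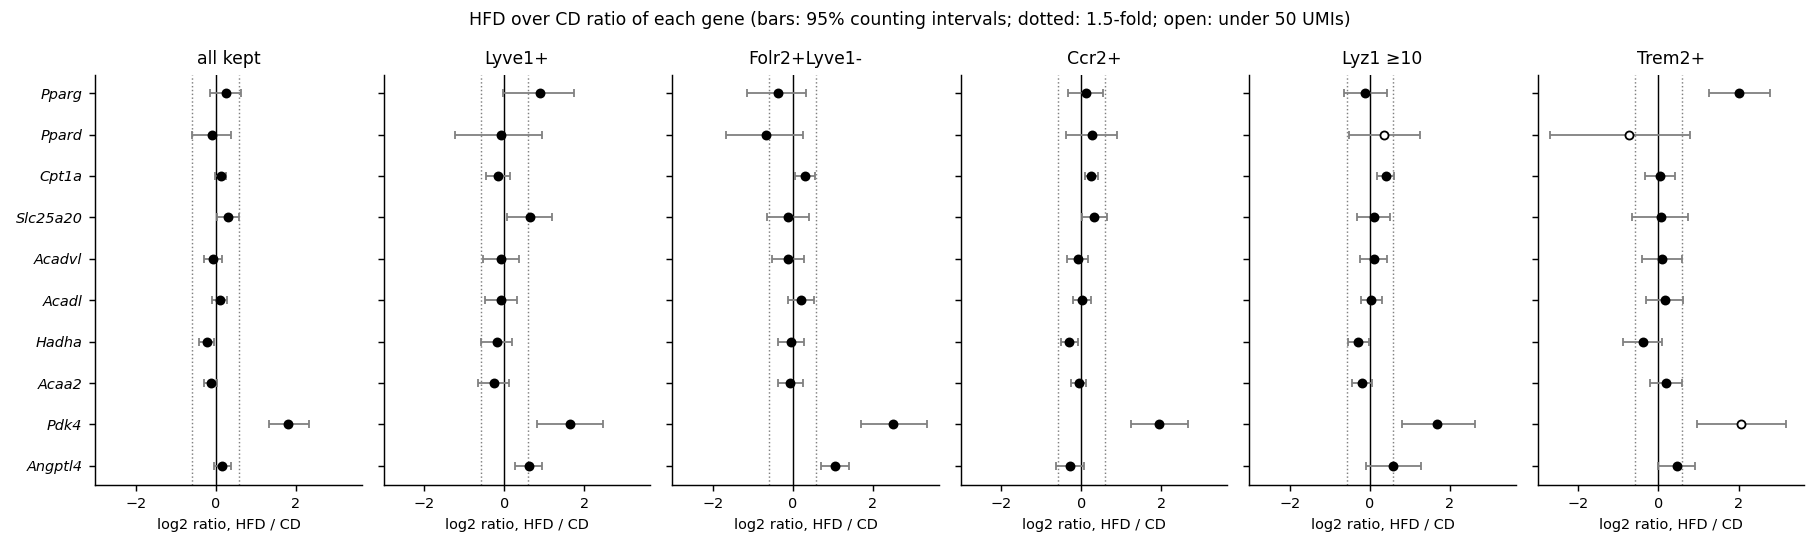
Log2 ratio of HFD over CD (horizontal axis) of each of the 10 genes (rows) in all kept cells and in the 5 cell sets (panels), with 95% exact conditional binomial intervals of counting error; dotted lines mark 1.5-fold and open points have under 50 UMIs over both libraries. *Pdk4* lies at 1.64 to 2.49 in the sets, *Pparg* at 2.01 in Trem2+ cells, and the 4 β-oxidation genes lie between the dotted lines.

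Across the 5 sets, 47 of the 50 ratios of HFD over CD rested on at least 50 UMIs, and 9 were called higher and 1 lower. In Lyve1+ cells 4 of 10 genes were called higher (*Pparg*, *Slc25a20*, *Pdk4* and *Angptl4*), where 7.27% of all genes were, and 0 lower, where 8.58% were. The ratio of *Pparg* there, 0.88 (-0.04 to 1.75), has an interval that holds 0. Other genes of Lyve1+ cells moved too: the 4 dendritic cell markers summed to 2.42 CPM in CD and 75.5 CPM in HFD, where *Flt3* and *Clec9a* were at 0, and the cycling genes to 127 and 27.6 CPM. Without the cells holding any marker of another type, dendritic cells included, the Lyve1+ ratios were 1.24 (-0.08 to 2.55) for *Pparg*, 0.85 (0.01 to 1.66) for *Slc25a20*, 2.47 (1.09 to 4.003) for *Pdk4* and 0.97 (0.51 to 1.43) for *Angptl4*. The part of the cycling genes was not tested. In Folr2+Lyve1- cells 2 of 10 were called higher (*Pdk4* and *Angptl4*), where 7.1% of all genes were, and 1 lower (*Ppard*, -0.67, -1.68 to 0.24), where 5.95% were. In Ccr2+ cells 1 of 10 and in Lyz1 high cells 1 of 9 was called higher, *Pdk4* in each, where 4.17% and 4.81% of all genes were, and none was called lower, where 8.21% and 6.05% were. In Trem2+ cells 0 of 8 were called lower, where 16.8% of all genes were. The median of the 10 genes lay between -0.07 and 0.13 in the 5 sets, beside -0.05 to 0.03 over all genes.

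The set contrasts not yet named were few. *Pdk4* was lower in Ccr2+ cells than outside them by a log2 ratio of -1.45 (-2.30 to -0.60) in CD and -1.40 (-1.94 to -0.85) in HFD, and lower in Lyz1 high cells by -0.60 (-1.58 to 0.30) and -1.04 (-1.61 to -0.49). It was higher in Lyve1+ cells in CD, by 0.88 (0.03 to 1.76), where 14.7% of all genes were called higher and 7.43% lower, and in Folr2+Lyve1- cells in HFD, by 0.84 (0.27 to 1.39), where 5.35% and 3.71% were. In Folr2+Lyve1- cells in CD, *Ppard* was called higher (0.59, -0.03 to 1.21), where 1.92% of genes were called higher and 5.69% lower. In Lyve1+ cells in HFD, *Angptl4* alone was called, where 12.6% were called higher and 6.54% lower. In HFD Trem2+ cells *Pparg* and *Angptl4* (0.73, 0.29 to 1.15) were called higher, where 8.29% of genes were, and *Ppard* lower on 4 UMIs in the set (-0.78, -2.70 to 0.66), where 14.2% were. In CD Trem2+ cells none of the 10 was called, where 4.28% of genes were called higher and 4.54% lower. *Pparg* was called higher in CD Lyz1 high cells (0.59, 0.08 to 1.11).

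Other genes of the pathway were counted from lists over all kept cells. Of 28 further genes of β-oxidation and fatty acid activation, 25 had at least 50 UMIs, with a median log2 ratio of -0.13. The fatty acid transporter *Slc27a1* alone was called higher, at 0.62 (0.43 to 0.80), and 5 were called lower, beside the 4.7% and 8.94% of all genes. The lower ones were led by *Cpt1c* (-2.27, on 44 and 6 UMIs), *Acad9* (-0.75) and the enoyl-CoA isomerase *Eci2* (-0.75, -1.03 to -0.47). *Cpt1c* only just reached the 50 UMIs needed, most of them in CD. Of 14 peroxisomal genes, 12 were tested with a median of -0.12, and 1 was called higher, the fatty acid importer *Abcd2* at 0.62 (0.36 to 0.88), and 1 lower. Both lists thus had medians slightly below that of all genes. Within the 5 sets, 21 to 23 genes of the β-oxidation and activation list were tested, and 1 to 3 were called higher and 0 to 2 lower. Of all genes, 4.17% to 8.88% were called higher and 5.95% to 16.8% lower in those sets. Such small counts are not read as a result about the list.

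Of 25 further PPAR targets, 13 were tested, with a median of -0.10, and 2 were called higher and 2 lower. Of all genes, 4.7% were called higher and 8.94% lower, which are also the shares for the lists that follow. The lipid droplet coat *Plin2* had 350 CPM in CD and 1031 CPM in HFD, a log2 ratio of 1.56 (1.51 to 1.61), and the thioesterase *Acot1* had 0.96 (0.26 to 1.67). The adipocyte hormone *Adipoq* was among those called lower (-0.94, on 61 and 21 UMIs). It is 1 of the 6 adipocyte markers above, which together fell from 113 CPM in CD to 65.5 CPM in HFD. *Plin2* was also called higher in each of the 5 sets, at log2 ratios from 1.44 in Ccr2+ cells to 2.20 in Trem2+ cells. Of 16 receptor and cofactor genes, 13 were tested with a median of 0.16 and none was called, and *Ppargc1a*, a coactivator of oxidation genes, had 0 UMIs in both libraries. Of 10 genes of pyruvate dehydrogenase and its control, all were tested with a median of -0.13, and *Pdk1* was called lower, at -0.61 (-1.17 to -0.07), in contrast to *Pdk4* of the same family. Of 6 genes of angiopoietin-like proteins and lipase control, 4 were tested with a median of -0.06, and *Gpihbp1*, the endothelial anchor of lipoprotein lipase, was called lower (-0.92, -1.48 to -0.38). The endothelial markers were lower in HFD too, at 21.9 CPM in CD and 12.9 CPM in HFD.

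**Figure D4:**
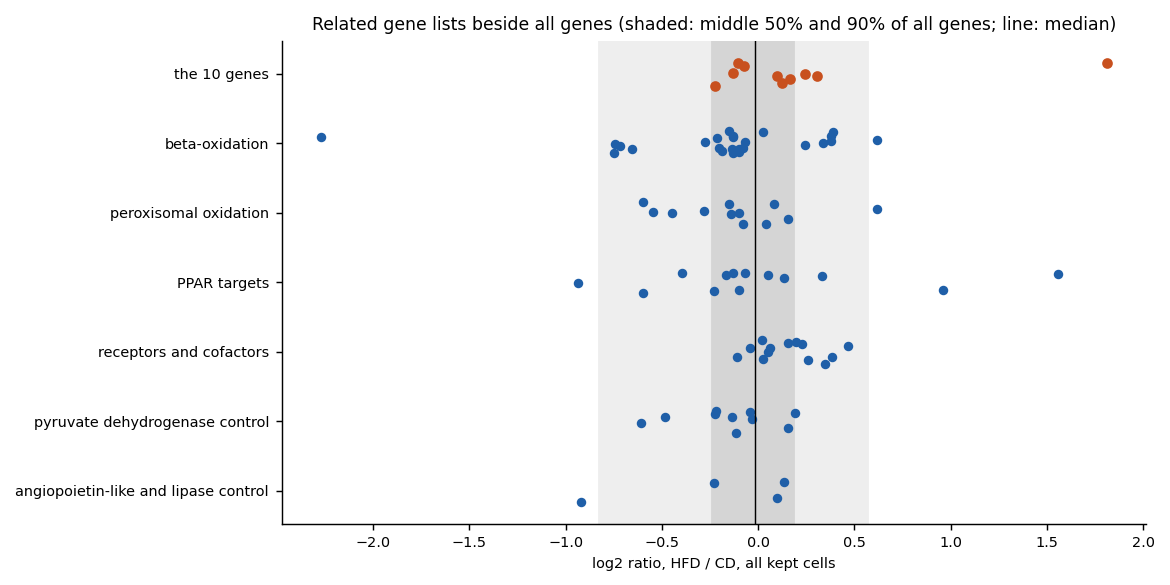
Log2 ratio of HFD over CD in all kept cells (horizontal axis) of the 10 genes (orange) and of the genes of 6 related lists with at least 50 UMIs (blue, rows; vertical scatter within a row has no meaning), with the middle 50% (dark grey) and 90% (light grey) of all 9929 genes tested and their median (line). *Pdk4* at 1.81 and *Plin2* at 1.56 lie furthest to the right of the grey range, and *Acot1*, *Slc27a1* and *Abcd2* lie nearer its right edge but outside it. Most genes of the oxidation lists lie within the grey range.

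Genes with the pattern most like that of a member were sought over the 10 points of 5 sets in 2 libraries, which share cells and depth. The genes most like *Angptl4* among 4314 genes with at least 500 UMIs were *Tmem243* and *C5ar1* (Pearson's r = 0.99 each). A best r of this size was common, with a median of 0.97 over genes, and those of *Cpt1a*, *Acadvl* and *Acadl* were 0.90, 0.96 and 0.93, with *Prrc2a*, *Gps2* and *Emc4*. Those of *Hadha* and *Acaa2* were 0.98 each, with *Bckdk* and *Utp11*.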

How the data were processed

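Droplet-based 3′ scRNA-seq (version 2 chemistry) was made of 1 pooled CD and 1 pooled HFD library of sorted epididymal ATMs. The matrices deposited by the authors hold raw counts, that is UMIs by gene and barcode. Cell Ranger 3.0.2 was run against mm10 and Ensembl release 93 per the labels and methods, with no normalization; the values were whole numbers. Cells with 200 to 3500 genes and at most 10% mitochondrial UMIs were kept, and doublets were kept too. UMIs were summed over cells, divided by all UMIs of the same cells (CPM) and given with exact Poisson intervals; log2 ratios have exact conditional binomial intervals, at 95%. UMIs are counted at transcript ends without length scaling, so levels were not ranked between genes. A call needed 1.5-fold and 50 UMIs over both sides. With 1 library per diet no test was made.

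The members, the gene lists and the sets were chosen with earlier results of these data known. The 10 members are named with all values; of each list, up to 3 called genes per direction are named, and *Ppara*, *Ppargc1a* and the split sets were added after their values were seen. Some genes that this rule names are not reported here. Computations used Python 3.11.15, numpy 2.4.6, scipy 1.17.1, pandas 2.3.3 and, for Scrublet, scanpy 1.11.5. The computation of the intervals was checked on simulated Poisson counts, the model that they assume. That check cannot show how they hold with added spread between cells or mice. Alternatives changed the cells kept, the scaling, the weight and depth of cells, doublets, other cell types, the overlap of sets and the call rule. Positions of genes are from GENCODE on GRCm38, which is mm10. CPM depends on depth: 2364 CD and 2021 HFD cells gave 12284010 and 8086475 UMIs.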

Additional observations from a re-analysis of the deposited data

Results flagged for a closer look

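Barcodes over the 10% mitochondrial limit, 2059 in CD and 1132 in HFD, entered no comparison of the report (those at up to 20% entered only the setting with that limit), and 2 of the 10 genes differed between the libraries there too. *Pdk4* had 6 UMIs (2.66 CPM) in CD and 25 UMIs (25.9 CPM) in HFD, a log2 ratio of 3.28 (1.96 to 4.86). *Angptl4* had 95 UMIs (42.1 CPM) and 83 UMIs (85.9 CPM), a log2 ratio of 1.03 (0.58 to 1.47). The other 8 genes had intervals that hold 0 there. These barcodes may be damaged cells, and no replicate stands behind the values.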

How the results depend on the processing

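No paired analysis was possible because each diet had 1 library. Of 1866 gene ratios recomputed under other settings, 1715 stayed within the counting interval of the reported ratio. Most that left it did so on thinning or in cells of exactly 1 set. Thinning to 800 UMIs kept 66 ratios within, moved 70 out and turned the sign of 4. Cells of exactly 1 set kept 66 within, moved 54 out and turned the sign of 6. Among all 1866, the sign differed from the reported one in 218, of which 208 had a reported interval that holds 0. The other 10 are named here. Ranges of depth apart, the ratio of *Pdk4* over all kept cells ranged from 1.49 to 2.32, that of *Pparg* in Trem2+ cells from 1.72 to 2.11 and that of *Angptl4* over all kept cells from -0.24 to 0.65. The range of *Pparg* in Trem2+ cells leaves out thinning and cells of exactly 1 set, which gave no finite ratio there. How that ratio depends on these settings is therefore not known.

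Calls changed as follows, from 1 higher over all kept cells, 9 higher and 1 lower within sets, and 9 higher and 13 lower between sets. With at least 1000 genes per cell, 5 were higher within sets and 8 lower between sets. With a 5% mitochondrial limit, and without cells with any of 38 markers of other types each found in at most 5% of cells, 0 were lower within sets. Without cells with any of all 43 such markers, added after seeing the data, 5 were higher and 0 lower within sets. With every cell weighted equally, 2 were higher over all kept cells and 2 lower within sets. Thinned to 800 UMIs, 1 was higher and 2 lower within sets. With each set cut to its cells of exactly 1 set, 3 were higher within sets, and 20 were higher and 21 lower between sets. The cells outside a set then included the rest of that same set. At 2-fold, 0 were lower within sets and 2 higher between sets, and with no filter on UMIs 2 were lower within sets. In the reported setting 47 of 50 ratios within sets and all 100 between sets had at least 50 UMIs. These numbers are not given for the other settings. The share of all genes called over all kept cells could change too. It was 4.7% higher and 8.94% lower of 9929 genes as reported, and 7.63% and 6.58% of 6158 genes with thinning. A changed count alone is therefore not a result about the members. The causes of the changed calls were not tested. Thinning and cells of exactly 1 set leave fewer UMIs and also change which cells a set holds.

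Thinning turned *Slc25a20* over all kept cells (-0.35) and in Ccr2+ cells (-0.23), and, in CD Folr2+Lyve1- cells against the rest, *Pparg* (-1.23) and *Angptl4* (0.77). Cells of exactly 1 set turned HFD over CD of *Cpt1a* in Folr2+Lyve1- cells (-0.024) and *Hadha* in Lyz1 high cells (0.021). Against all other kept cells, those of the same set included, they turned *Angptl4* in CD Folr2+Lyve1- cells (1.11). They also turned *Acadvl* in Ccr2+ (0.13 in CD, 0.16 in HFD) and *Hadha* in CD Trem2+ cells (-1.35). In CD, 779 cells lay in exactly 1 set, 446 of them Lyve1+, 224 Folr2+Lyve1- and 92 Ccr2+. Few CD Lyz1 high or Trem2+ cells thus stood behind these *Hadha* values. By ranges of genes per cell, added after seeing the data, *Hadha* over all kept cells turned at 200 to 999 genes (0.16) and *Angptl4* in Lyve1+ cells at 2000 to 3500 genes (-0.39); *Angptl4* over all kept cells, whose reported interval holds 0, was -0.06 at 1000 to 1999 and -0.67 at 2000 to 3500 genes. Scrublet's own threshold called 2 barcodes in each library and so had not worked; removal of its top 159 CD and 80 HFD barcodes moved no ratio beyond its interval. Depth limits *Pdk4*, *Ppard* and *Pparg* most, at 51 to 131 UMIs per library.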
